A study of Mus musculus with 4 samples.

Results

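In 4 single-cell libraries of mouse Achilles tendon, 252 of the 19021 cells that passed the filters carried transcripts of both Acan and Sox9 on a stromal background. They are called Acan Sox9 cells here. They were selected on raw counts of unique molecular identifiers (UMIs, each standing for 1 captured transcript). A cell needed at least 2 UMIs of Acan, at least 1 of Sox9, at least 20 of Col1a1, Col1a2 and Dcn together, none of Pecam1, Cdh5, Ptprc or Pax7, and under 3 of Tnmd. Apart from Acan and Sox9, these conditions define the stromal gate. It holds collagen-rich cells with little of the tenocyte gene Tnmd. They have no UMI of Pecam1 or Cdh5 (endothelial cells), Ptprc (leukocytes) or Pax7 (muscle stem cells), but can carry other transcripts of those cell types. The levels of the 10 genes of the rule therefore describe the choice of cells and are given with no test. The Vegfc CRE day 7 library held 237 of the cells and the Prox1 eGFP day 21 library held 15.

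Acan encodes aggrecan, the proteoglycan whose sulphated sugar chains hold water in cartilage. Sox9 is the transcription factor that commits mesenchymal cells to cartilage and switches on Acan, Col2a1 and other matrix genes. In tendon, cells with this programme lie where tendon is compressed and at the insertion into bone, and insertion progenitors carry Sox9 together with Scx, the transcription factor of tendon. In mice, injury of the Achilles tendon can be followed by cartilage and later bone inside the tendon, which is called heterotopic ossification.

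The study profiled 4 groups, with 1 library each made from 5 pooled tendons: Vegfc CRE tendon at day 7 after B/T, and Prox1 eGFP tendon at day 0 without treatment and at days 7 and 21 after B/T. B/T is the submitters' abbreviation and is not expanded here. Vegfc is a growth factor of lymphatic endothelium, CRE is a recombinase, Prox1 is the transcription factor of lymphatic identity and eGFP is a fluorescent reporter. The driver of each transgene, the strain, the sex and the age are not given in the sources used here. The protocol describes a flow sort that separated cells expressing Prox1, whereas the cell type label of the same libraries reads unsorted. The Vegfc CRE day 7 and Prox1 eGFP day 21 libraries differ in mouse line and in day, and possibly in the sort, and these cannot be told apart.

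The libraries held 92568978 UMIs in 8711 barcodes for Vegfc CRE day 7, and 6761289, 59312181 and 59894792 UMIs in 717, 5051 and 6704 barcodes for Prox1 eGFP days 0, 7 and 21. Any pair of libraries shared 2 to 14 barcodes, and no barcode of an Acan Sox9 cell was shared. Each group being 1 library, the spread between animals cannot be measured, and differences between libraries carry 95% intervals for counting error only and no test.

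Acan Sox9 cells were a larger share of the stromal gate in Vegfc CRE day 7 than in Prox1 eGFP day 21. They made up 237 of 1293 gate cells in Vegfc CRE day 7, which is 18.3% with an exact Clopper-Pearson interval of 16.3% to 20.6%. In Prox1 eGFP day 21 they made up 15 of 260 gate cells, which is 5.77% with an interval of 3.27% to 9.34%. The intervals did not overlap. Prox1 eGFP day 7 had 1 such cell among 8 gate cells, and Prox1 eGFP day 0 had 0 among 25, where the exact interval reaches 13.7%. As a share of all cells they were 3.35% of 7071 in Vegfc CRE day 7 and 0.235% of 6388 in Prox1 eGFP day 21.

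The share depended on how many UMIs a cell held. In Vegfc CRE day 7 it was 2.56% of the 156 gate cells under 10000 UMIs, 7.21% of 402 between 10000 and 20000, 21.0% of 433 between 20000 and 30000, 37.6% of 197 between 30000 and 40000, and 37.1% of 105 above that. In Prox1 eGFP day 21 the same bins held 0 of 72, 1.92% of 104, 4.0% of 50, 28.6% of 28 and 3 of 6. Both libraries thus climbed with depth. Gate cells had a median of 21401 UMIs in Vegfc CRE day 7 and 15512 in Prox1 eGFP day 21. Among gate cells of 10000 to 40000 UMIs the shares were 18.8% in Vegfc CRE day 7 and 6.59% in Prox1 eGFP day 21. By bin, the intervals of the libraries were apart only between 20000 and 30000 UMIs. They were 17.3% to 25.2% in Vegfc CRE day 7 and 0.488% to 13.7% in Prox1 eGFP day 21. The part that depth plays in the remaining gap was not tested.

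**Figure D1:**
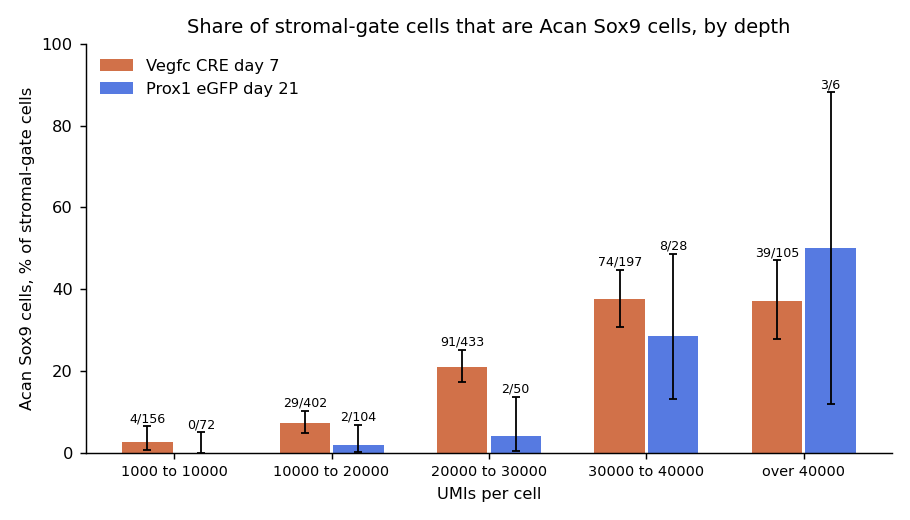
Share of stromal-gate cells that are Acan Sox9 cells (vertical axis, percent) by UMIs per cell (horizontal axis, 5 bins), for Vegfc CRE day 7 and Prox1 eGFP day 21. Bars are shares, whiskers 95% Clopper-Pearson intervals, and the numbers give Acan Sox9 cells of gate cells; the share is 2.56% in the shallowest Vegfc CRE bin and 37.1% in the deepest.

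Acan UMIs per cell ran from 2 through a median of 9 to 73 in Vegfc CRE day 7, and from 2 through 4 to 194 in Prox1 eGFP day 21. Sox9 UMIs ran from 1 through 5 to 32 in Vegfc CRE day 7, and from 1 through 3 to 35 in Prox1 eGFP day 21. Just inside the threshold lay 28 and 4 cells with exactly 2 Acan UMIs in these 2 libraries. Just outside lay 39 and 4 gate cells with Sox9 and 1 Acan UMI. In Vegfc CRE day 7 the cells just outside had Col2a1 in 2 of 39, Matn3 in 3 of 39 and Scx at 21.4 CPM (UMIs of the gene per 1000000 UMIs of the summed cells), whereas members with 2 or 3 Acan UMIs had Col2a1 in 3 of 42, Matn3 in 5 of 42 and Scx at 34.9 CPM. Cells just outside the threshold thus carried these genes as well, and whether it cuts through a continuous range of cells was not tested. Leukocytes, which should lack both genes, had Acan in 0.825% and Sox9 in 0.550% of 2544 cells in Vegfc CRE day 7 (median 5774 UMIs), and Acan in 0 and Sox9 in 10 of 85 cells in Prox1 eGFP day 21 (median 10762 UMIs). The Sox9 share in Prox1 eGFP day 21 leukocytes was thus 11.8%, and its source was not tested. A Sox9 UMI was therefore not confined to stromal-gate cells in that library.

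The working label of these cells is chondrogenic, with Acan, Sox9, Col2a1, Hapln1 and Matn3 as markers, and the 3 markers that did not choose the cells were each seen in a minority of them. In Vegfc CRE day 7, Col2a1, the main collagen of cartilage, had UMIs in 35 of 237 cells, or 14.8%. Hapln1, the link protein that ties aggrecan to hyaluronan, was seen in 18 cells, or 7.59%. Matn3, a matrilin that bridges collagen and proteoglycan, was seen in 52 cells, or 21.9%. Leukocytes of the same library had Col2a1 in 0.0393%, Hapln1 in 0 and Matn3 in 0.118% of cells. The members' median depth was 29467 UMIs against 5774 for leukocytes, and after thinning to 5000 UMIs a cell the members of Vegfc CRE day 7 that entered the matched comparison had Col2a1 and Matn3 in 4.29% of cells each. All Prox1 eGFP day 21 UMIs of Col2a1, Hapln1 and Matn3 sat in 1 of the 15 cells. The label therefore holds for a part of the cells, and they are named by their rule.

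That 1 cell, called the Col2a1-rich cell, held 46790 UMIs, of which 2324 were Col2a1, 613 Snorc, 378 Col9a3, 278 Hapln1, 244 Cnmd, 243 Col9a1, 237 Matn3 and 194 Acan. It had 29 Col1a1 UMIs and none of Scx, Thbs4 or Tnmd, and it was not called a doublet. The other 14 cells of Prox1 eGFP day 21 had no UMI of Col2a1, Hapln1 or Matn3, for which 3 counts allow a UMI in up to 21.4% of such cells (a limit on cells with a UMI, not on cells expressing the gene), and they had 73 Acan UMIs together. Their Col1a1 ran from 196 to 1258 UMIs. Because 1 cell decides the cartilage values of Prox1 eGFP day 21, the results that rest on it most are also given without it, an alternative chosen after seeing the data. Matching was then repeated and again used 12 Acan Sox9 cells of Prox1 eGFP day 21, so values without that cell also reflect another cell taking its place.

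Of 10 cartilage matrix genes (Col2a1, Col9a1, Col9a2, Col9a3, Col11a2, Hapln1, Matn3, Cnmd, Ucma and Scrg1), at least 1 was seen in 150 of 237 cells of Vegfc CRE day 7, or 63.3%, and at least 3 in 47 cells, or 19.8%. In Prox1 eGFP day 21, 3 of 15 cells had at least 1 and only the Col2a1-rich cell, with all 10, had at least 3. The Vegfc CRE cells spread over 87 with none of the 10 genes, 61 with 1, 42 with 2, 22 with 3, 12 with 4, 4 with 5, 2 with 6, 3 with 7 and 4 with 8. No Vegfc CRE cell had more than 77 UMIs of the 10 genes together, whereas the Col2a1-rich cell had 4227. Cells with Sox9 but no Acan had at least 1 of the 10 genes in 14.2% of 323, cells with Acan but no Sox9 in 35.8% of 53, and leukocytes in 1.81% of 2544, at median depths of 24420, 26077 and 5774 UMIs.

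**Figure D2:**
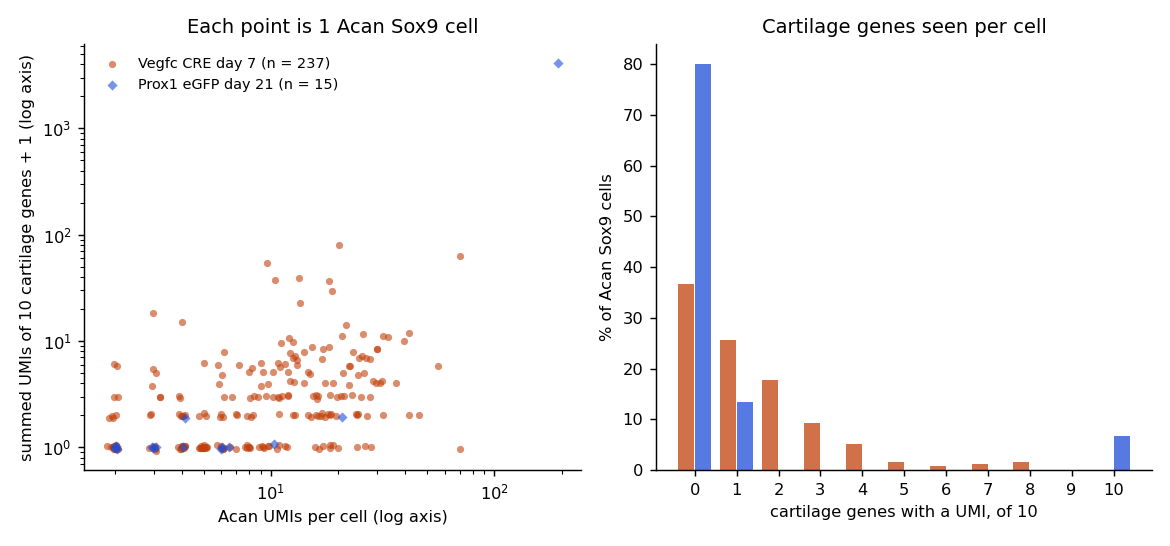
Left, Acan UMIs against the summed UMIs of the 10 cartilage matrix genes plus 1 (both log axes, points jittered) for each Acan Sox9 cell of Vegfc CRE day 7 (n = 237) and Prox1 eGFP day 21 (n = 15). Right, percent of Acan Sox9 cells by how many of the 10 genes they show: 1 Prox1 eGFP cell stands at 4227 UMIs and all 10 genes, and Vegfc CRE cells spread between 0 and 77 UMIs.

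Which genes other than those of the rule differ between Acan Sox9 cells and stromal cells without Acan and Sox9? For each Acan Sox9 cell up to 3 gate cells of the same library with neither gene and within 20% of its UMIs were taken. This gave 235 Acan Sox9 cells against 374 comparison cells in Vegfc CRE day 7, with median depths of 29439 and 21650 UMIs. In Prox1 eGFP day 21 it gave 12 against 26 cells, with median depths of 33248 and 26863 UMIs. UMIs were summed per library and cell set, 7139184 against 8660388 UMIs in Vegfc CRE day 7 and 381376 against 672599 in Prox1 eGFP day 21. The sums were tested with edgeR's quasi-likelihood test with the library as a block. The p-values rest on 1 residual degree of freedom per gene and 11.1 prior degrees of freedom, from a spread pooled over genes. They do not measure the spread between animals. Where a gene has few UMIs in Prox1 eGFP day 21, a small p-value does not show that its ratio recurs there.

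Of 11496 genes tested, 195 were higher in Acan Sox9 cells (1.7% of genes) and 394 lower (3.43%) at a Benjamini-Hochberg adjusted p under 0.05. Without the Col2a1-rich cell 193 of 11473 were higher (1.68%) and 443 lower (3.86%), and 161 and 379 of them were among the first calls. The calls rest on the test and the block: a DESeq2 Wald test called 55 higher and 123 lower, and edgeR without the library block called 0 in either direction, with 831 genes at an unadjusted p under 0.05 against 1528 with the block. Comparison cells also held mural cells, the contractile cells around vessels, which the rule does not remove. Cells with at least 2 UMIs of Rgs5 or any of Myh11 were 1 of 235 Acan Sox9 cells against 62 of 374 comparison cells in Vegfc CRE day 7, and 0 of 12 against 1 of 26 in Prox1 eGFP day 21. With these cells and the Col2a1-rich cell both left out, 136 of 11007 genes were higher (1.24%) and 347 lower (3.15%). Matching was then repeated and used 217 Acan Sox9 cells and 338 comparison cells in Vegfc CRE day 7. Values without mural cells therefore also reflect Acan Sox9 cells that lost their match.

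Cartilage matrix genes had a higher median ratio than tendon genes with all cells. The 12 of them still tested without the Col2a1-rich cell had a lower one. Of 26 listed, 20 were abundant enough to test, 14 were higher and 1, Cilp, was lower, with a median log2 ratio of 4.72 against 0.01 over all genes tested. Only 12 of the list could be tested without the Col2a1-rich cell, 4 were higher and none lower, and the median was 1.01, against 1.89 with the cell over the same 12 genes and 1.66 for 8 tendon genes without it. With mural cells left out as well, 9 were tested, 2 were higher, and the median was 0.33. Within Vegfc CRE day 7 alone, where that cell plays no part, 19 of the 20 genes had a positive log2 ratio of CPM. The median there was 3.46, against 1.96 for the 8 tendon genes, with counts under 3 set to 3. Genes that passed the filter only through the side where they are high had to differ, so these counts are a description.

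Col11a1, a chain of the fibril-nucleating collagen XI of cartilage that tendon also makes, was the most evenly raised of the cartilage collagens. It stood at 782 CPM in Acan Sox9 cells against 89.9 CPM in comparison cells of Vegfc CRE day 7, and at 2444 against 35.7 CPM in Prox1 eGFP day 21. Acan Sox9 cells were higher in both libraries, and it was seen in 229 of 235 cells of Vegfc CRE day 7. The fitted log2 ratio was 4.32 (SE 0.47, edgeR adjusted p = 0.000127). Without the Col2a1-rich cell the Prox1 eGFP day 21 level was 418 CPM, the log2 ratio was 3.28 and the edgeR adjusted p was 4.33e-07.

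Other collagens of cartilage were rare in Vegfc CRE day 7 and almost absent from its comparison cells. Col2a1 had 95 UMIs in 34 Acan Sox9 cells against 0 in comparison cells, which is at least 38.4-fold higher when the 0 is set to 3 UMIs over the group. Col9a1, a chain of collagen IX that coats cartilage fibrils, had 141 UMIs in 63 cells against 4 UMIs in 2 cells, a ratio of 42.8 with an interval of 16.3 to 159. Its partner chains went the same way: Col9a2 had 110 against 6 UMIs, with a ratio of 22.2, and Col9a3 had 117 against 6, with a ratio of 23.7. Col11a2, the second chain of collagen XI, had 48 UMIs in 21 cells against 6 in 6 cells. The Col2a1-rich cell held every Prox1 eGFP day 21 UMI of Col2a1, Col9a1, Col9a2 and Col9a3 in the matched Acan Sox9 cells, and the comparison cells had none. Without that cell these 4 genes had too few counts outside the Vegfc CRE day 7 Acan Sox9 cells to pass the low-count filter. Their difference therefore rests on Vegfc CRE day 7.

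Genes of the pericellular and territorial matrix followed the same pattern. Matn3 had 86 UMIs in 51 Acan Sox9 cells against 6 UMIs in 6 comparison cells of Vegfc CRE day 7, a ratio of 17.4 with an interval of 7.67 to 48.7. Hapln1 had 32 UMIs in 18 cells against 0, Cnmd (chondromodulin, an inhibitor of vessel growth made by cartilage) 64 UMIs in 14 cells against 0, and Scrg1, a gene expressed in chondrogenic cells, 87 UMIs in 36 cells against 0. Ucma, a secreted protein of growth plate cartilage, had 77 UMIs in 19 cells against 2 in 2 cells. Matn4, a matrilin that is not limited to cartilage, was higher in both libraries, but its UMIs in Prox1 eGFP day 21 were few. It stood at 70.5 against 5.66 CPM in Vegfc CRE day 7 and at 34.1 against 1.49 CPM in Prox1 eGFP day 21, with 13 UMIs against 1 in Prox1 eGFP day 21, and a log2 ratio of 3.73 (SE 0.33, edgeR adjusted p = 3.04e-05). Without the Col2a1-rich cell 2 UMIs against 1 remained there, and the log2 ratio of 3.58 (edgeR adjusted p = 3.41e-05) rested on Vegfc CRE day 7.

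Comp, a pentameric protein that binds collagen in cartilage and tendon, stood at 433 against 103 CPM in Vegfc CRE day 7 and at 1075 against 370 CPM in Prox1 eGFP day 21. Its log2 ratio was 1.83 (SE 0.18, edgeR adjusted p = 5.71e-05), but 72.7% of its UMIs in the Prox1 eGFP day 21 Acan Sox9 cells were in the Col2a1-rich cell. Without it the level there was 294 CPM, below the comparison cells, and the edgeR adjusted p was 0.257. Prg4, the lubricating proteoglycan of joint surfaces, and Matn2 did not pass the test, with log2 ratios of -0.25 and 0.29. Matn1 had no UMI in any of the 237 Vegfc CRE cells, which allows a UMI in up to 1.27% of such cells. Cilp, a protein of the cartilage intermediate layer, was lower, at 126 against 245 CPM in Vegfc CRE day 7 and 249 against 349 CPM in Prox1 eGFP day 21, and it did not pass the test in the cells matched again without the Col2a1-rich cell (log2 ratio -0.43, edgeR adjusted p = 0.489), where it had 151 UMIs in place of 95 in Prox1 eGFP day 21.

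**Figure D3:**
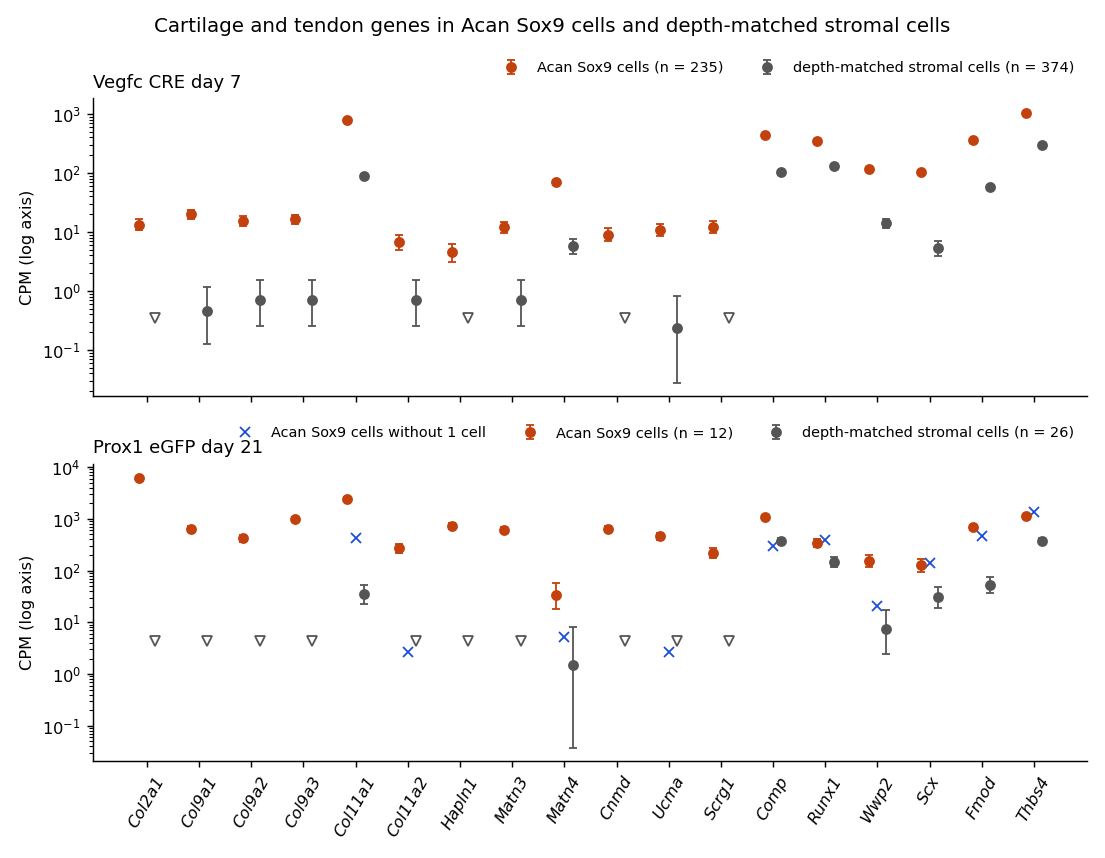
Levels of cartilage and tendon genes in CPM (log axis) in Acan Sox9 cells and in depth-matched comparison cells, with 95% counting intervals; open triangles mark a floor of 3 UMIs where a set had none, and crosses give Prox1 eGFP day 21 without the Col2a1-rich cell where above 0. Col2a1 stands at 13.3 CPM in the Acan Sox9 cells of Vegfc CRE day 7 and at 6094 CPM in those of Prox1 eGFP day 21.

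To show the start regions of genes that these results turn on, the 250 bases before the RefSeq start of Acan, Matn3 and Col11a1 are given 5′ to 3′ on the gene's strand, from RefSeq on GRCm38.p6, the mm10 build. Acan is the gene of the rule, Matn3 a marker that did not choose the cells, and Col11a1 the collagen raised with and without the Col2a1-rich cell. Capitals mark the letters CAGCTG, an E-box of the kind that basic helix-loop-helix factors such as Scx can bind.
Acan, chr7:79052976-79053225, plus strand: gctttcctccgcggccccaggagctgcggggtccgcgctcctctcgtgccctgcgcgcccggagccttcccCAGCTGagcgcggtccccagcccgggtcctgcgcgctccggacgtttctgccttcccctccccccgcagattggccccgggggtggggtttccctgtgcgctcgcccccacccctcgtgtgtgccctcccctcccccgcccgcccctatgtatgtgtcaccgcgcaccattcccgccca
Matn3, chr12:8947679-8947928, plus strand: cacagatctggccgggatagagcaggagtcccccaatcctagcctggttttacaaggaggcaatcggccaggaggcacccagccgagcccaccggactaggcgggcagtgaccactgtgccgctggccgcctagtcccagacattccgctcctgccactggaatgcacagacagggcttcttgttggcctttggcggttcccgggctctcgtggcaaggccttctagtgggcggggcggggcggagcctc
Col11a1, chr3:114030290-114030539, plus strand: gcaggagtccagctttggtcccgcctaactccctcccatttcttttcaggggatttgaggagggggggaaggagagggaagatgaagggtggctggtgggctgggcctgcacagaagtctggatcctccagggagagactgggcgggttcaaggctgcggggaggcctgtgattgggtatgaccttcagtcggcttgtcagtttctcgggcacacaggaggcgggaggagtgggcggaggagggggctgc
The Acan window held 1 CAGCTG, 179 bases before the start, and the Matn3 and Col11a1 windows held none. The letters ACAAAG, a core that SOX factors can bind, were in none of the 3 windows on either strand. Over all 32851 windows of this length, 13.0% held CAGCTG, which reads the same on both strands, and 16.5% held ACAAAG on one strand or the other. Of the 26 cartilage matrix genes 19 had a window, 22 windows in all, of which 3 held CAGCTG and 1 held ACAAAG. These matches describe letters in short windows. Col2a1 lies on mouse chromosome 15 (chr15:97975602-98004695, minus strand), Sox9 on chromosome 11 (chr11:112782224-112787760, plus strand) and Hapln1 on chromosome 13 (chr13:89539796-89611652, plus strand), and their windows are not shown.

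Among regulators of cartilage, 3 of 10 tested were higher, none was lower and the median log2 ratio was 1.03. Wwp2, a ubiquitin ligase whose gene hosts the microRNA miR-140 of cartilage, stood at 118 against 14.0 CPM in Vegfc CRE day 7 and at 152 against 7.43 CPM in Prox1 eGFP day 21. It was higher in both libraries, with a log2 ratio of 3.36 (SE 0.27, edgeR adjusted p = 1.37e-05), and 2.89 without the Col2a1-rich cell, where its Prox1 eGFP day 21 level was 21.0 CPM. Runx1, a transcription factor of early chondrogenic and blood cells, stood at 341 against 129 CPM in Vegfc CRE day 7 and at 346 against 147 CPM in Prox1 eGFP day 21, a log2 ratio of 1.34 (SE 0.17, edgeR adjusted p = 0.00046). Trps1, a repressor active in growth plate cells, had a log2 ratio of 1.20 and lost its call without the Col2a1-rich cell (edgeR adjusted p = 0.111). Sox5 and Sox6, which act with Sox9 on cartilage genes, did not pass the test. Sox5 stood at 12.0 against 12.2 CPM and Sox6 at 4.34 against 0.808 CPM in Vegfc CRE day 7.

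Genes of hypertrophic cartilage, the stage that precedes bone, were mixed, with 2 of 5 tested higher and none lower. Mmp13, the collagenase that clears cartilage matrix, stood at 138 against 23.6 CPM in Vegfc CRE day 7 and 62.9 against 14.9 CPM in Prox1 eGFP day 21, a log2 ratio of 2.48 (SE 0.25, edgeR adjusted p = 6.37e-05). Alpl, the phosphatase of mineralising cells, stood at 29.98 against 4.39 CPM in Vegfc CRE day 7 and 260 against 0 CPM in Prox1 eGFP day 21, of which 15.8 CPM remained without the Col2a1-rich cell. Its log2 ratio was 3.78, and 2.92 without that cell, with edgeR adjusted p of 0.0012 and 0.00069. Col10a1, the collagen of hypertrophic chondrocytes, had no UMI in the 237 Vegfc CRE cells. Runx2, Spp1 and Pth1r did not pass the test. On the wider osteoblast list 1 of 8 was higher, which was Alpl, and none was lower.

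Genes of tendon were higher as well. Of 8 tested 5 were higher and none lower, with a median log2 ratio of 1.78, and without the Col2a1-rich cell the count was again 5, with Kera, a small proteoglycan (edgeR adjusted p = 0.0312), in place of Comp. With mural cells left out as well 4 were higher: Scx, Thbs4, Fmod and Fibin. Scx stood at 102 against 5.31 CPM in Vegfc CRE day 7 and at 126 against 31.2 CPM in Prox1 eGFP day 21. It was seen in 63.4% of Acan Sox9 cells against 5.61% of comparison cells in Vegfc CRE day 7, or 28.8% against 2.70% after thinning to 5000 UMIs, and in 0.825% of leukocytes. Its log2 ratio was 3.48 (SE 0.42, edgeR adjusted p = 0.000283). Within Vegfc CRE day 7 the ratio was 19.2 and within Prox1 eGFP day 21 it was 4.03, with intervals of 14.3 to 26.5 and 2.37 to 7.09.

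Fmod, a small proteoglycan that guides collagen fibrils in tendon, stood at 363 against 58.2 CPM in Vegfc CRE day 7 and at 682 against 53.5 CPM in Prox1 eGFP day 21, a log2 ratio of 3.07 (SE 0.23, edgeR adjusted p = 6.52e-06), and at 462 CPM in the Acan Sox9 cells of Prox1 eGFP day 21 without the Col2a1-rich cell. Thbs4, a thrombospondin of tendon matrix, stood at 1055 against 295 CPM in Vegfc CRE day 7 and at 1127 against 373 CPM in Prox1 eGFP day 21, a log2 ratio of 1.73 (SE 0.15, edgeR adjusted p = 2.28e-05). Both were higher in both libraries. Fibin was higher too, with a log2 ratio of 1.69, and Comp is the fifth of those higher with all cells. Tnmd, held under 3 UMIs by the rule, was at 9.24 against 7.04 CPM in Vegfc CRE day 7 and at 5.24 against 7.43 CPM in Prox1 eGFP day 21.

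Genes for the sulphated sugar chains of aggrecan and for hyaluronan, on 1 list, were higher in part: 5 of 26 tested were higher, none lower, and the median log2 ratio was 0.30. Chsy1, a chondroitin synthase, stood at 110 against 35.9 CPM in Vegfc CRE day 7 and 55.1 against 19.3 CPM in Prox1 eGFP day 21, a log2 ratio of 1.61 (edgeR adjusted p = 0.00107). The other 4 were Csgalnact1 and Chsy3, which start and extend chondroitin chains, Slc26a2, the sulphate transporter of cartilage, and Has2, a hyaluronan synthase. They had log2 ratios of 0.96, 1.65, 1.47 and 1.26. Slc26a2 lost its call without the Col2a1-rich cell (edgeR adjusted p = 0.0785). With that cell and mural cells both left out, 3 of the 26 genes on the list were higher and 1 was lower. Among small leucine-rich proteoglycans 3 of 12 were higher: Fmod, Aspn, which binds collagen and TGF-beta, and Bgn, with log2 ratios of 0.83 for Aspn and 0.40 for Bgn. Podn was lower by the test, at a log2 ratio of -0.99.

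Collagens of the general stroma went mostly the other way. Of 15 tested 7 were lower and 1 was higher, and the median log2 ratio was -0.51. Col12a1, which sits on fibrils of tendon and other dense tissue, was the one higher, at 890 against 299 CPM in Vegfc CRE day 7 and 545 against 208 CPM in Prox1 eGFP day 21, a log2 ratio of 1.501 (SE 0.16, edgeR adjusted p = 9.12e-05). Col14a1, a fibril-associated collagen of loose stroma, stood at 201 against 801 CPM in Vegfc CRE day 7 and 296 against 841 CPM in Prox1 eGFP day 21, a log2 ratio of -1.76 (SE 0.16, edgeR adjusted p = 3.96e-05). Col3a1, Col5a3, Col15a1, Col18a1, Col4a1 and Col4a2 were also lower, with log2 ratios between -0.62 and -3.32. Col15a1 and the basement membrane chain Col4a2 lost their calls once mural cells and the Col2a1-rich cell were left out (edgeR adjusted p = 0.076 and 0.0691).

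The list with the largest share of lower genes, apart from the mural markers, was that of adventitial fibroblasts, the cells of the loose sheath around tendon and vessels: 16 of 19 tested were lower, none was higher, and the median log2 ratio was -1.62. Without the Col2a1-rich cell 17 were lower, and with mural cells left out as well 14 were. Pi16, a marker of this state, stood at 91.6 against 731 CPM in Vegfc CRE day 7 and 378 against 853 CPM in Prox1 eGFP day 21. Cd34, a surface protein of sheath fibroblasts, stood at 59.2 against 314 CPM in Vegfc CRE day 7 and 173 against 498 CPM in Prox1 eGFP day 21, a log2 ratio of -2.005 (SE 0.21, edgeR adjusted p = 9.64e-05). Gsn, an actin-severing protein, stood at 295 against 1243 CPM in Vegfc CRE day 7 and 564 against 3100 CPM in Prox1 eGFP day 21, a log2 ratio of -2.25 (SE 0.14, edgeR adjusted p = 2.21e-06). Acan Sox9 cells were lower in both libraries for each of the 3. Clec3b, Dpp4, Ly6a, Ly6c1, Dpt, Sema3c, Cd248, Anxa3, Igfbp6, Cxcl12, C3, Col15a1 and Pdgfra were lower too.

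Mesenchymal progenitor markers gave 7 lower and 1 higher of 13 tested. The lower ones, Thy1, Tppp3, Cd34, Ly6a, Pdgfra, Ctsk and Acta2, overlap with the sheath list in 3 members. Nt5e, the surface enzyme CD73, was the one higher, at 35.6 against 6.81 CPM in Vegfc CRE day 7 and 34.1 against 4.46 CPM in Prox1 eGFP day 21, a log2 ratio of 2.50 (SE 0.34, edgeR adjusted p = 0.000666). On the list of joint and insertion genes 3 of 11 were higher and 5 lower. Erg, a transcription factor of joint-side cartilage, had a log2 ratio of 2.61, Clu one of 1.68, and Gdf5, the joint growth factor, had 41 UMIs in 24 Acan Sox9 cells against 0 in Vegfc CRE day 7 and 1 against 0, in the Col2a1-rich cell, in Prox1 eGFP day 21. Creb5, Osr1, Htra1, Tppp3 and Cilp were lower. Among 18 genes of activated fibroblasts 3 were higher (Cthrc1, Fn1 and Thbs2) and 3 lower (Acta2, Tagln and Fap). Acta2 and Tagln, contractile genes that mural cells express strongly, lost their calls with mural cells and the Col2a1-rich cell left out, where their log2 ratios were -0.07 and 0.06.

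All 5 tested markers of mural cells were lower, and their summed level was 16.1 against 883 CPM in Vegfc CRE day 7 and 26.2 against 183 CPM in Prox1 eGFP day 21, over 6 markers. Rgs5 stood at 1.68 against 617 CPM in Vegfc CRE day 7, and at 0 against 99.6 CPM in Prox1 eGFP day 21. Of 3 Notch genes called lower of 8 tested, Notch3 and Heyl lost their calls with these cells and the Col2a1-rich cell left out (edgeR adjusted p = 0.992 and 0.258) and Hes1 kept its own. Markers of leukocytes were present at low levels in both sets of Vegfc CRE day 7. There 11 macrophage genes summed to 163 against 199 CPM and 6 neutrophil genes to 88.8 against 90.0 CPM. In Prox1 eGFP day 21 the macrophage sum was 21.0 against 11.9 CPM, with 6 of 11 at 0 in Acan Sox9 cells, and the neutrophil genes were at 0 in both sets. On the lists of other cells Trac (T cells), Esam and Flt1 (endothelium), Des (muscle) and Acp5 (osteoclasts) were lower and no gene was higher. The 7 endothelial genes summed to 14.4 against 53.4 CPM and the 9 muscle genes to 8.12 against 106 CPM in Vegfc CRE day 7, and to 18.4 against 22.3 CPM and 36.7 against 59.5 CPM in Prox1 eGFP day 21. The part of these cells in any single result was not tested beyond the values without mural cells.

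**Figure D4:**
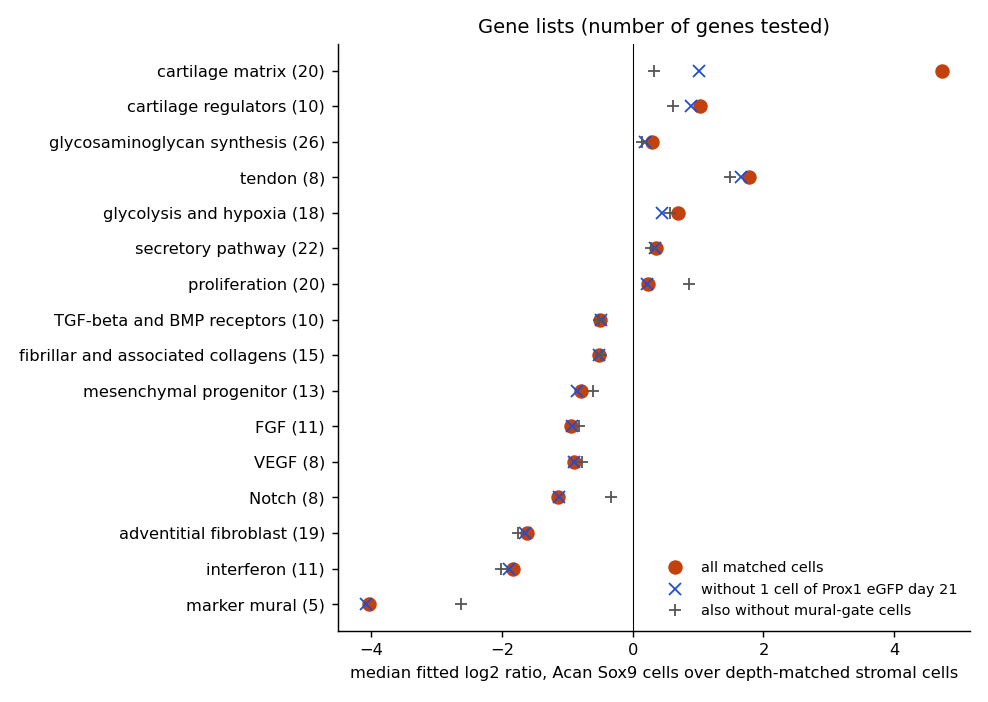
Median log2 ratio of Acan Sox9 cells over depth-matched comparison cells for each gene list, with the number of genes tested, in the full set, without the Col2a1-rich cell, and without that cell and mural cells. Over the genes tested in each, cartilage matrix moves from a median of 4.72 in the full set to 0.33 in the last, tendon stays between 1.78 and 1.495, and adventitial fibroblast stays between -1.62 and -1.75.

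Signalling genes changed singly. In the TGF-beta and BMP pathway, whose ligands drive chondrogenesis, Gdf5 was higher and Gdf10 lower among 10 ligands. Gdf5 had no UMI in comparison cells, so it passed the low-count filter only through Acan Sox9 cells. Without the Col2a1-rich cell it did not pass the filter. The receptors Tgfbr2 and Tgfbr3 were lower among 10, with log2 ratios of -0.89 and -0.82. Among 17 inhibitors and binders Grem1, a BMP antagonist, was higher at 14.4 against 1.39 CPM in Vegfc CRE day 7 and 5.24 against 0 CPM in Prox1 eGFP day 21, where it had 2 UMIs. Ltbp1 and Ltbp2, which bind latent TGF-beta or its fibrils, were higher too. Among targets Tsc22d1 was higher and Id4 lower of 10. None of 7 hedgehog genes was called by edgeR, and Smo, the pathway's transducer, stood at 53.2 against 42.5 CPM in Vegfc CRE day 7. Among 11 FGF genes Fgf18, a growth factor of cartilage, and Spry2 were lower, with log2 ratios of -1.95 and -1.48.

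In the Wnt pathway 2 of 12 were higher and 2 lower. Sfrp1, a secreted Wnt antagonist, stood at 1493 against 526 CPM in Vegfc CRE day 7 and 831 against 394 CPM in Prox1 eGFP day 21, a log2 ratio of 1.31 (SE 0.15, edgeR adjusted p = 0.000219), and Dkk3 was higher too. Sfrp4, of the same family, stood at 17.1 against 572 CPM in Vegfc CRE day 7 and 186 against 1487 CPM in Prox1 eGFP day 21, a log2 ratio of -4.08 (SE 0.36, edgeR adjusted p = 3.04e-05). The related Sfrp1 and Sfrp4 thus went in opposite directions in both libraries. Wnt9a was lower. Of 9 IGF genes the binding proteins Igfbp2 and Igfbp6 were lower by the test, although Igfbp2 had 4 UMIs against 0 in Prox1 eGFP day 21, and of 12 targets of YAP and TAZ 1 was, Axl.

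Of 18 genes on the list of glycolysis and hypoxia 8 were higher, 1 was lower and 9 did not pass the test, with a median log2 ratio of 0.69. Eno1, the enolase, stood at 422 against 175 CPM in Vegfc CRE day 7 and 283 against 75.8 CPM in Prox1 eGFP day 21, a log2 ratio of 1.54 (SE 0.19, edgeR adjusted p = 0.000358). Gapdh, Pkm, Pgk1, Pgam1, Tpi1, Ldha and the lactate carrier Slc16a3 were also higher, with log2 ratios of 0.68 to 1.62. Without the Col2a1-rich cell 4 of them were higher (Gapdh, Eno1, Pkm and Slc16a3), and with mural cells left out as well 3 were (Gapdh, Eno1 and Pkm). Adm, a peptide induced by low oxygen, was lower at 10.2 against 82.1 CPM in Vegfc CRE day 7. Of 22 genes of the secretory pathway 3 were higher, all modifiers of collagen: P4ha3, a prolyl hydroxylase, and Plod2 and Plod3, lysyl hydroxylases, with log2 ratios of 0.99, 1.30 and 0.97. None of 20 proliferation genes was called by edgeR. Birc5 stood at 74.2 against 67.7 CPM in Vegfc CRE day 7. With mural cells and the Col2a1-rich cell left out, 4 of the 20 were higher.

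Among proteases and their inhibitors Mmp13 was higher and Mmp3, Adamts2 and Adamts5 were lower, of 21 tested. Adamts5, an aggrecan-cleaving protease, stood at 44.1 against 246 CPM in Vegfc CRE day 7 and 23.6 against 483 CPM in Prox1 eGFP day 21, a log2 ratio of -3.01 (SE 0.31, edgeR adjusted p = 9.16e-05). Of 17 inflammatory genes 2 were higher and 3 lower. Ccl11, the eosinophil chemokine eotaxin, had 20 UMIs in 7 Acan Sox9 cells against 928 in 185 comparison cells of Vegfc CRE day 7 and 0 against 167 UMIs in Prox1 eGFP day 21, a log2 ratio of -5.48 (SE 0.35, edgeR adjusted p = 2.45e-06). Cxcl14 and Csf1 were lower too. Tnfsf11, the osteoclast factor RANKL, was higher at 20.4 against 6.35 CPM in Vegfc CRE day 7, with 2 UMIs against 1 in Prox1 eGFP day 21. Saa3, an acute-phase protein, was higher by 3.55-fold in Vegfc CRE day 7 and had only 1 UMI against 2 in Prox1 eGFP day 21.

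Interferon genes were lower in 4 of 11 tested, with none higher and a median log2 ratio of -1.84. The count was 7 without the Col2a1-rich cell, 7 without mural cells and 5 without both. Ifit1 stood at 1.40 against 30.1 CPM in Vegfc CRE day 7 and 0 against 17.8 CPM in Prox1 eGFP day 21 (edgeR adjusted p = 0.000175), and Isg15, Ifit3 and Bst2 were the others. Bst2, a surface protein that holds back viruses, stood at 55.8 against 187 CPM in Vegfc CRE day 7 and 152 against 183 CPM in Prox1 eGFP day 21. With counts under 3 set to 3, the median log2 ratio over the 11 interferon genes was -2.16 in Vegfc CRE day 7, with 0 positive. In Prox1 eGFP day 21 it was 0.08, with 6 positive, where genes set to 3 in both sets count as positive. The lower median of the list thus rests on Vegfc CRE day 7. Of 8 VEGF pathway genes 4 were lower and none higher: Vegfd, Pgf, and the receptors Flt1 and Nrp1. With mural cells left out 2 of 7 were lower, Vegfd and Nrp1. Of 12 genes of the immediate early response, which tissue digestion can induce, Atf3 was lower and none was higher.

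The genes that name the mouse lines were scarce. Vegfc had 23 UMIs in Acan Sox9 cells against 34 in comparison cells of Vegfc CRE day 7, or 3.22 against 3.93 CPM, and 1 against 7 UMIs in Prox1 eGFP day 21 (log2 ratio -0.62, edgeR adjusted p = 0.914). Prox1 had 10 against 6 UMIs in Vegfc CRE day 7 and 4 against 10 in Prox1 eGFP day 21. Flt4, the receptor of Vegfc, had 4 against 2 UMIs in Vegfc CRE day 7 and none in Prox1 eGFP day 21. Neither Vegfc nor Prox1 passed the test. Among all 237 Vegfc CRE members 22 had a Vegfc UMI, or 9.28%.

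Outside the lists, the 15 highest ratios past the test included receptors, a channel and proteases. Fzd9, a Wnt receptor, had 65 UMIs in 48 Acan Sox9 cells against 0 in comparison cells of Vegfc CRE day 7, at least 26.3-fold higher. In Prox1 eGFP day 21 it had 1 UMI against 0, which was in the Col2a1-rich cell. It passed the low-count filter only through Acan Sox9 cells, so it had to be higher and its rank is a description. Kcns1, a potassium channel subunit, had 72 UMIs in 44 cells against 2 in 2 cells. The granzymes Gzmc and Gzme, proteases best known from killer lymphocytes, were higher although the rule leaves out cells with Ptprc: Gzmc stood at 42.7 against 1.96 CPM in Vegfc CRE day 7 and 10.5 against 2.97 CPM in Prox1 eGFP day 21, a log2 ratio of 4.205 (SE 0.48, edgeR adjusted p = 0.00019). Gzme had 391 UMIs in 58 cells against 32 in 15 cells of Vegfc CRE day 7 and 11 against 0 in Prox1 eGFP day 21. The 6 T cell markers, of which Cd3d and Nkg7 were at 0 in Acan Sox9 cells, summed to 9.665 against 11.3 CPM in Vegfc CRE day 7, and their part in the granzyme result was not tested. Palmd, Moxd1, Car12, Cd24a, Smoc1 and Sbspon were also among the 15, with log2 ratios of 3.39 to 3.998. Cd24a had no UMI in Prox1 eGFP day 21 without the Col2a1-rich cell.

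At the other end, 14 of the 15 lowest ratios outside the lists were genes with no UMI in the Acan Sox9 cells of either library. These genes passed the low-count filter only through the comparison cells, so they had to be lower and their ranks are a description. Cfd, the complement factor adipsin made by fat cells, had 0 against 86 UMIs, in 4 comparison cells, in Vegfc CRE day 7 and 0 against 23 in Prox1 eGFP day 21. Olfr558, an olfactory receptor gene, had 0 against 133 and 0 against 2 UMIs in the same libraries, at least 36.5-fold lower in Vegfc CRE day 7. Higd1b, a pericyte gene, had 1 against 323 and 0 against 4. With mural cells left out Olfr558 and Higd1b did not pass the filter, whereas Cfd did.

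**Figure D5:**
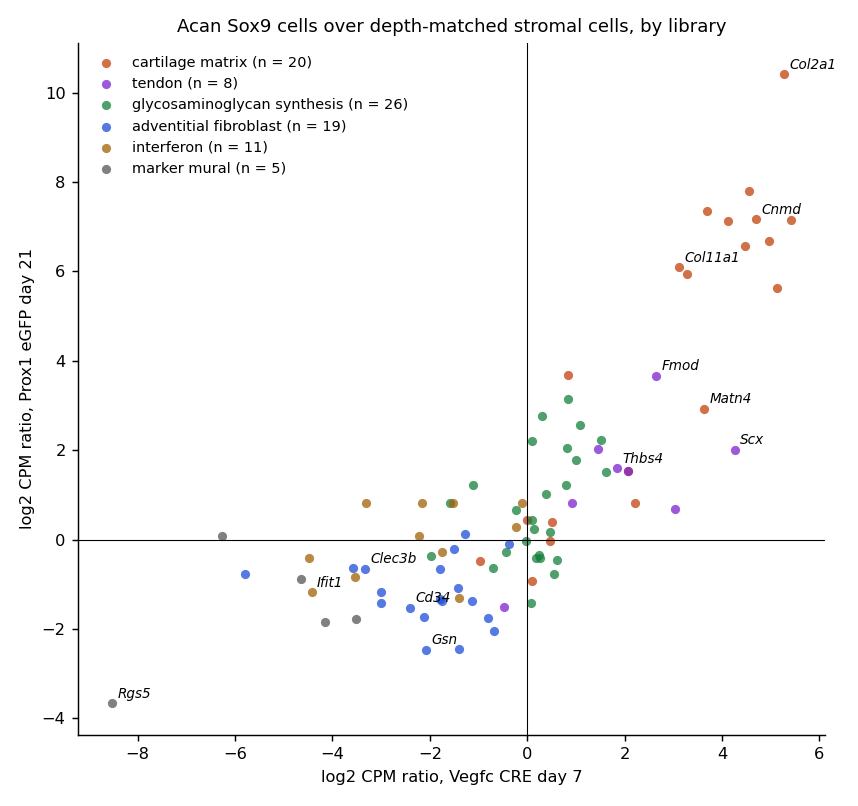
Log2 ratio of CPM in Acan Sox9 cells over comparison cells for the genes of 6 lists, for Vegfc CRE day 7 (horizontal axis) and Prox1 eGFP day 21 (vertical axis), with counts under 3 set to 3. Scx, Col11a1 and Fmod are positive in both libraries, and Gsn and Cd34 are negative in both.

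Within the 237 Vegfc CRE members, tendon genes and some cartilage genes were higher where Acan was higher. In cells with 2 to 3, 4 to 9, 10 to 19 and 20 or more Acan UMIs (42, 78, 69 and 48 cells, median depths 28408, 28239, 29467 and 33085 UMIs), Scx stood at 34.9, 81.5, 107 and 167 CPM. Fmod stood at 88.0, 235, 294 and 808 CPM in the same 4 strata, and Col11a1 at 599, 634, 767 and 1076 CPM. Sox9 varied less, from 172 to 219 CPM. Col2a1 did not follow step by step, at 4.98, 3.05, 24.2 and 19.3 CPM, and was seen in 3, 6, 16 and 10 cells. Matn3 stood at 4.15, 3.05, 14.9 and 25.96 CPM, and cells with at least 3 of the 10 cartilage genes were 4, 3, 22 and 18. These strata are cut from the gene that chose the cells and are given with no test.

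Cells with Scx had some cartilage genes more often and others less often than cells without it, given with no test. Of 150 Vegfc CRE members with Scx, 24 had Col2a1 and 40 had Matn3, or 26.7%. Of 87 without Scx, 11 had Col2a1 and 12 had Matn3, or 13.8%. Col9a1 was seen in 36 of the cells with Scx and in 27 of those without, or 31.0% of the second, and Hapln1 in 12 and 6. The median depths were 29931 UMIs with Scx and 28522 without. None of the 8 Prox1 eGFP day 21 cells with Scx had Col2a1, Col9a1, Matn3 or Hapln1. Members with Mki67, a gene of dividing cells, were 40, at a median of 39890 UMIs against 28619 for the other 197. Of those 40 cells 3 had Col2a1 and 14 had Matn3, and of the other 197 cells 32 had Col2a1 and 38 had Matn3.

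How do Acan Sox9 cells compare with tenocytes of the same libraries? Cells of the same gate with at least 3 Tnmd UMIs numbered 460 in Vegfc CRE day 7 and 120 in Prox1 eGFP day 21. Of these, 174 (37.8%) and 15 (12.5%) also met the Acan and Sox9 conditions, and they were not removed before matching. This comparison was chosen after seeing the data. It set 236 Acan Sox9 cells against 431 Tnmd cells in Vegfc CRE day 7 and 15 against 43 in Prox1 eGFP day 21, matched on depth in the same way. Of 11337 genes tested, 35 were higher in Acan Sox9 cells (0.309%) and 116 lower (1.02%), and without the Col2a1-rich cell 69 of 11245 were higher (0.614%) and 189 lower (1.68%).

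Of the tendon genes tested against Tnmd cells 5 of 9 were lower and none was higher. Scx stood at 100 CPM in Acan Sox9 cells against 222 CPM in Tnmd cells of Vegfc CRE day 7 and at 105 against 216 CPM in Prox1 eGFP day 21, a log2 ratio of -1.13 (SE 0.15, edgeR adjusted p = 0.000657). Mkx, a second transcription factor of tendon, stood at 5.34 against 14.8 CPM and 1.94 against 11.03 CPM, and Kera, a small proteoglycan, at 12.1 against 133 CPM and 23.3 against 80.0 CPM, in the same order of libraries. Col22a1, a collagen of tissue junctions, was at 0 in Acan Sox9 cells of both libraries against 15.7 and 18.6 CPM. Scx in Acan Sox9 cells was thus above the comparison cells without Acan and Sox9 and below the Tnmd cells.

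No cartilage matrix gene passed the test as higher in Acan Sox9 cells than in Tnmd cells once the Col2a1-rich cell was left out. With it 8 of 22 cartilage matrix genes were higher and 2 lower. Without it 0 of 21 were higher and 6 were lower, with a median log2 ratio of -0.38. The Tnmd cells were not filtered on Acan or Sox9, so cells that met both conditions could stand on the comparison side. A comparison with the other Tnmd cells alone was not run. Col2a1 stood at 13.3 CPM against 8.41 CPM in Tnmd cells of Vegfc CRE day 7, and Matn3 at 11.9 against 8.24 CPM. Tnmd cells that met the Acan and Sox9 conditions had at least 3 of the 10 cartilage genes in 40 of 174 cells of Vegfc CRE day 7, or 23.0%, against 19.8% of the 237 Acan Sox9 cells, and other Tnmd cells had them in 4.196% of 286. Genes higher than in Tnmd cells with and without the Col2a1-rich cell included Wwp2, with a log2 ratio of 1.26, Sfrp1 with 0.68 and Erg with 1.62. Mki67 and Top2a, genes of dividing cells, were higher as well, Mki67 at 50.3 against 23.3 CPM in Vegfc CRE day 7 and 9.70 against 3.45 CPM in Prox1 eGFP day 21 (log2 ratio 1.11, edgeR adjusted p = 0.0347). So were the chemokines Ccl2 and Ccl7, with log2 ratios of 2.28 and 1.75.

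Between the 2 libraries few genes of Acan Sox9 cells had a ratio with an interval beyond 2-fold. Of 6715 genes with at least 100 UMIs in the 2 sums together, 81 were higher in Vegfc CRE day 7 with an interval beyond 2-fold (1.21%) and 105 lower (1.56%). Without the Col2a1-rich cell 87 of 6686 were higher (1.3%) and 90 lower (1.35%). The sums were 7301045 UMIs for Vegfc CRE day 7 and 515234 for Prox1 eGFP day 21, so genes with few UMIs had wide intervals. The low counts of genes beyond 2-fold therefore do not show that the libraries are alike. Some genes that chose the cells or stood high in them were at close levels: Sox9 stood at 194 and 208 CPM, Scx at 100 and 105 CPM, Thbs4 at 1044 and 1099 CPM and Runx1 at 336 and 365 CPM in Vegfc CRE day 7 and Prox1 eGFP day 21. The ratio of Scx was 0.96 with an interval of 0.73 to 1.29. Others moved with the Col2a1-rich cell. Acan stood at 403 CPM in Vegfc CRE day 7 and 518 CPM in Prox1 eGFP day 21, or 156 CPM without that cell, so its direction turned. Wwp2 stood at 116 and 118 CPM, with 23.5 CPM in Prox1 eGFP day 21 without the cell.

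The 10 lowest ratios of Vegfc CRE day 7 over Prox1 eGFP day 21 were nearly all cartilage genes (Snorc, Col2a1, Mia, Hapln1, Cnmd, Col9a3, Matn3, Fxyd2, Ucma and Col11a2) and rested on the Col2a1-rich cell. Fxyd2 had 145 UMIs with that cell and 6 without it. Over 19 cartilage matrix genes the median log2 ratio was -4.61 with that cell and 0.90 without it. Without it Col11a1 was at 767 CPM in Vegfc CRE day 7 and 354 CPM in Prox1 eGFP day 21, and Col2a1 was at 13.3 and 0 CPM. The direction of these genes between the libraries is thus decided by 1 cell.

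Higher in Vegfc CRE day 7 were the neutrophil genes S100a8 and S100a9, the chemokine Cxcl2 and the cytokine Il1b, the cell cycle gene Cdc20, the granzyme Gzmd, and Gm10260, Wfdc18, Frmd4a and Rspo2. All 10 had no UMI in Prox1 eGFP day 21 and were at least 3.27-fold to at least 20.4-fold higher. Saa3 stood at 579 CPM in Vegfc CRE day 7 and 1.94 CPM in Prox1 eGFP day 21, and Cxcl5, a neutrophil chemokine, at 634 and 17.5 CPM. Leukocytes made up 2544 of 7071 cells in Vegfc CRE day 7 and 85 of 6388 in Prox1 eGFP day 21. The part of free leukocyte RNA in S100a8, S100a9 and Il1b was not tested. Of 18 proliferation genes 5 were higher by this measure and none lower, with a median log2 ratio of 1.41, against 0.05 over all genes. Mki67 stood at 50.3 CPM in Vegfc CRE day 7 and 9.70 CPM in Prox1 eGFP day 21, where it had 5 UMIs, all in 1 cell.

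Lower in Vegfc CRE day 7 once the Col2a1-rich cell was left out were genes of sheath fibroblasts among others. Clec3b, a plasminogen-binding protein of sheath fibroblasts, stood at 77.5 CPM in Vegfc CRE day 7 and 884 CPM in Prox1 eGFP day 21, which is 11.4-fold lower with an interval of 10.0 to 13.0. Timp3, an inhibitor of matrix proteases, stood at 97.8 and 1003 CPM in the same order. Ccn3, Il33, Cygb, Sfrp4, Col15a1, Ccl2, Ccl7 and Tmem100 were the others of the 10 lowest. Pi16 was at 89.7 CPM in Vegfc CRE day 7 and 408 CPM in Prox1 eGFP day 21. Over 18 adventitial fibroblast genes the median log2 ratio was -1.07 without that cell. With it the median was -0.93, 8 were lower with an interval beyond 2-fold and 1, Pdgfra, was higher. Line, day and sort cannot be told apart as the source of these differences.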

How the data were processed

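Single-cell RNA was profiled with 10x Genomics Single Cell 3' v3 chemistry in 4 libraries, each of 5 pooled tendons, per the labels. The authors deposited raw UMI counts per gene and barcode, aligned to mm10 with Cell Ranger 5.0.1 per the submitters' processing notes. Barcodes under 500 genes or 1000 UMIs, or with mitochondrial genes at 15% of UMIs or more, were dropped, which left 7071, 690, 4872 and 6388 cells in Vegfc CRE day 7 and Prox1 eGFP days 0, 7 and 21, with median depths of 8556, 7065, 8473 and 7563 UMIs. Scrublet, run through scanpy 1.11.5, called 1.27% and 1.41% of cells doublets in the libraries compared, 1 Acan Sox9 cell among them. These were kept, and leaving them out was tried. The members, gene lists and tests were chosen with earlier results of these data known.

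Acan Sox9 cells were matched by UMIs to stromal cells of the same library with neither gene, and 5 had no match. Counts were summed and tested with edgeR 4.0.16 (R 4.3.3, limma 3.58.1, filterByExpr, trimmed mean of M-values scaling, library as block). The Benjamini-Hochberg adjustment ran over all genes that passed the filter, and the 10 genes of the rule were left out of the counts afterwards. The procedure was tested on simulated data. Beside this, DESeq2 1.42.0, other scaling, no filter, no block, other thresholds and matching, and each library alone were tried. Named genes were the cartilage genes with at least 20 UMIs, the called members of other lists (or the 2 most abundant), the 15 highest and 15 lowest called genes outside the lists with 1 sign in both libraries, and, between libraries, the 10 highest and 10 lowest ratios among genes with at least 100 UMIs. Some genes that meet this rule are not reported here. Leaving out the Col2a1-rich cell or mural cells, and the Tnmd comparison, were added after seeing the data. Cells were not tested as replicates. Prox1 eGFP days 0 and 7 had too few stromal cells to compare.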

Additional observations from a re-analysis of the deposited data

Results flagged for a closer look

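For 4 named genes, the ratio of Acan Sox9 cells over comparison cells lay on opposite sides of 1 in the 2 libraries with counting intervals that did not include 1, and the difference between the libraries was not tested. Mef2c, a transcription factor of hypertrophic cartilage, had a log2 ratio of -0.40 in Vegfc CRE day 7 and 1.02 in Prox1 eGFP day 21. Its Prox1 eGFP day 21 level fell without the Col2a1-rich cell, so the second value depends in part on that cell. Prg4 had 0.10 in Vegfc CRE day 7 and -0.93 in Prox1 eGFP day 21. S100b, a gene of Schwann cells and chondrocytes, had -1.08 in Vegfc CRE day 7 and 1.03 in Prox1 eGFP day 21. Igfbp2 had -4.74 in Vegfc CRE day 7, and 4 UMIs against 0 in Prox1 eGFP day 21.

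The Prox1 eGFP day 7 library, which enters no comparison, held 1 cell that met the rule.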

How the results depend on the processing

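Of the settings tried, these moved the counts of genes higher and lower in Acan Sox9 cells (195 and 394) by more than 1.5 times: DESeq2 gave 55 and 123, no filter on low counts gave 308 and 621, no library block gave 0 and 0, and comparison cells of any depth gave 477 and 884. The cartilage matrix median of 4.72 over 20 genes was 1.01 over the 12 still tested without the Col2a1-rich cell. It was 0.33 over the 9 still tested without that cell and mural cells. Over the 20 genes it ran from 3.46 with Vegfc CRE day 7 alone to 5.78 with Prox1 eGFP day 21 alone. Without the Col2a1-rich cell the Prox1 eGFP day 21 value was 0.82, which is what counts set to 3 in both sets give. The share of Vegfc CRE gate cells was 21.4% at 1 Acan UMI and 15.1% at 4, and that of Prox1 eGFP day 21 was 3.08% at 4. Among the genes reported, direction changed for Igfbp2 with DESeq2 (log2 ratio 0.32), Tagln without the Col2a1-rich and mural cells (0.059), and Saa3, which ran from -0.18 in Prox1 eGFP day 21 alone to 1.83 in Vegfc CRE day 7 alone. Between libraries, leaving out the Col2a1-rich cell turned the log2 ratios of Ucma (2.32), Col11a2 (1.62), Alpl (1.22), Col11a1 (1.11), Col27a1 (0.94), Comp (0.59) and Pth1r (0.94). That of Acan, a gene of the rule, turned as well. Wwp2 and Mef2c, whose intervals had included equality, were at 2.31 and 2.11. Apart from leaving out that cell and mural cells, the cause was not tested. With 15 cells, Prox1 eGFP day 21 limits every result: 0 UMIs in its other 14 cells leave a UMI possible in up to 21.4% of such cells and set no limit on cells expressing a gene.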
